A study of Mus musculus with 45 samples.

Results

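Transcripts of 8 genes of the epidermal growth factor (EGF) receptor system were followed in primary mouse embryonic fibroblasts (MEFs) exposed to a lipid that triggers ferroptosis, an iron-dependent cell death driven by lipid peroxidation. The genes are 5 ligands (Ereg, Areg, Hbegf, Tgfa and Nrg1), the receptor Egfr and 2 negative regulators of the receptor (Errfi1 and Lrig1). They were taken by symbol from a count table of 57010 gene identifiers, and all 8 were found and kept by the filter on low counts. The symbol Nrg1 stands beside a second identifier that had 0 counts in every library and is not counted. Ereg, Areg, Hbegf and Errfi1 were higher with either compound in all 9 preparations of cells. They were lower in all 9 when ferrostatin-1 was added to the compound. Areg rests on few reads and was kept by the filter only because of the groups in which it is high. The 9 may not be independent, since vehicle libraries of the senescent states with the same replicate number deviated together. No share of all genes is given for counts over preparations, here or below.

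EGF receptor ligands are made as membrane-bound precursors, and metalloproteases of the ADAM family cut them free. Epiregulin (Ereg), amphiregulin (Areg), heparin-binding EGF-like growth factor (Hbegf) and transforming growth factor alpha (Tgfa) bind the EGF receptor, Hbegf and Ereg also bind ErbB4, and neuregulin 1 (Nrg1) binds ErbB3 and ErbB4. The active receptor signals through RAS and the kinases RAF, MEK and ERK, and ERK activity induces transcription of several ligands and of its own inhibitors. Errfi1, also called Mig6, binds the kinase domain of the receptor and blocks it, while Lrig1 is a membrane protein that promotes removal of the receptor.

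The cells were wild-type MEFs, connective-tissue cells cultured from embryos, in 3 states with 5 treatments each. The states were uninduced cells and cells made senescent with 200 µM H2O2 or 2 µM etoposide (a topoisomerase II poison) for 24 h and kept 5 days in plain medium. The treatments were ethanol vehicle (EtOH), alpha-eleostearic acid (α-ESA, here ESA, a conjugated fatty acid), its derivative α-ESA-me (here ESA-Me, the methyl ester), and either compound following a pretreatment of 1 h with 2 µM ferrostatin-1 (Fer-1, a radical-trapping inhibitor of ferroptosis). Compounds were present for 12 h. The sample labels give 2 µg/mL for both compounds whereas the protocol text states 10 µg/mL (ESA) and 20 µg/mL (ESA-Me). Values of the compounds are therefore set side by side and not compared. No group received Fer-1 alone. The 15 groups held 3 replicates each, 45 libraries in all, which the series calls biological replicates.

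Total counts per library were 13.5 to 59.6 megareads, with a median of 22.7. Libraries of a state that carried the same replicate number deviated from their group means together, so the number was used as a block and is called a preparation here. Same-number vehicle libraries of the H2O2-induced and etoposide-induced states also deviated together (r 0.602 to 0.744). The 9 preparations counted below may therefore not be independent. Of 6 marker lists, the 10 fibroblast markers summed to 34857 to 48765 CPM, the read count scaled to the TMM-adjusted library size in megareads. Fn1, Col1a1, Vim and Col1a2 gave most of this sum (medians 23641, 5364, 4816 and 4566 CPM). Dcn, Pdgfra and Lum were low, with medians of 8.81, 1.95 and 1.87 CPM. The 6 endothelial markers reached at most 3.42 CPM and the 8 epithelial ones at most 38.3 CPM, of which Krt19 alone gave up to 37.0 while Epcam was at most 0.0968. In every preparation the epithelial sum was lower with Fer-1 added to a compound than with the compound alone. In H2O2-induced cells it was 3.94, 2.56 and 2.43 CPM with Fer-1 on ESA against 6.71, 4.14 and 4.01 CPM with ESA alone. It was higher than vehicle with either compound in H2O2-induced cells and with ESA-Me in etoposide-induced cells, and went both ways elsewhere. Its part in the changes below was not tested. The 6 macrophage markers summed to 30.9 to 231 CPM, mostly Lyz2, the 5 of skeletal muscle to 39.3 to 178 CPM and the 6 neural and glial ones to 51.0 to 110 CPM, mostly Tubb3. In bulk RNA, fewer cells of a type and less RNA per cell cannot be told apart.

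Ereg and Areg are neighbours on mouse chromosome 5 (GRCm38, GENCODE M21). Ereg spans bases 91074622 to 91093646 and Areg bases 91139599 to 91148432, both on the plus strand, with 46.0 kb between the end of the former and the start of the latter. Egfr lies on chromosome 11 (16752203 to 16918158, plus), Errfi1 on chromosome 4 (150853919 to 150868892, plus), Tgfa on chromosome 6 (86195223 to 86275719, plus), Lrig1 on the same chromosome (94604529 to 94700158, minus) and Nrg1 on chromosome 8 (31814551 to 32884029, minus).

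Promoter windows of 300 bases, from 250 bases before to 50 after a start site, were read from RefSeq (GRCm38.p6) for Areg, Tgfa, Egfr, Lrig1 and 2 start sites of Errfi1, 6 windows in all. The motifs below were searched on both strands because they belong to factors of growth factor and stress signalling. The cAMP response element TGACGTCA was in the windows of Areg and of the downstream start site of Errfi1, and 1.79% of 32851 mouse promoter windows hold it. The AP-1 motif TGANTCA (7.81% of windows) and the antioxidant response element TGACNNNGC (12.4%) were in none of the 6. The match is palindromic, so it reads the same on both strands, and it overlapped no other motif. The windows that hold the match are shown. No window of Ereg, Hbegf or Nrg1 was among those read, and the upstream start site of Errfi1 held no match. Any part of the motif in the changes below was not tested. Capitals mark the motif, whose first base lies at -61 from the start site of Areg and at -51 from that of Errfi1. The coordinates are chr5:91139349-91139648 (plus strand) and chr4:150854820-150855119 (plus strand).
Areg: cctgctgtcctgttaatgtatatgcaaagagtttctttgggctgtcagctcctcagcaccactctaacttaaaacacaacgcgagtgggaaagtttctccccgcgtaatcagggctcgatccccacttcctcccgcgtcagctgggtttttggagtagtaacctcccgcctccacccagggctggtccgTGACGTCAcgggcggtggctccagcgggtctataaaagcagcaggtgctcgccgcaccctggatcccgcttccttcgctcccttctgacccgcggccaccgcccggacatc
Errfi1: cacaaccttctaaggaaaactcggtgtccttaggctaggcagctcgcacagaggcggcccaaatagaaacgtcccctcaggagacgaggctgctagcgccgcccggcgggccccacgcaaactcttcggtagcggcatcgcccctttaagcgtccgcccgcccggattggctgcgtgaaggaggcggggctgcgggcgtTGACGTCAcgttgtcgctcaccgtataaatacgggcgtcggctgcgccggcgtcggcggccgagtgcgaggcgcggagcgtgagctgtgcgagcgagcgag

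Levels of different genes can be set side by side only per transcript length. In uninduced vehicle cells, CPM per kilobase of merged exons was 38.2 ± 5.43 (SD, n = 3) for Hbegf, 11.4 ± 1.82 for Errfi1, 9.85 ± 0.582 for Lrig1, 8.44 ± 0.228 for Egfr, 6.24 ± 2.47 for Ereg and 1.30 ± 0.460 for Nrg1. Areg stood at 0.133 ± 0.0824 and Tgfa at 0.0571 ± 0.0409 on the same scale. Hbegf was thus the most abundant of the 5 ligand transcripts, and Areg and Tgfa were close to the limit of detection, with 634 and 679 counts over all 45 libraries against 286963 for Hbegf. Over the 15 group means, the ratio of the highest to the lowest CPM was 5.69 for Ereg, 3.18 for Errfi1, 3.14 for Hbegf, 3.20 for Nrg1, 1.35 for Lrig1 and 1.34 for Egfr. For the sparse Areg and Tgfa it was 46.8 and 4.0. When the 15 groups were ordered by mean level, neighbouring groups overlapped in their replicates for every gene and every step, except 1 of 14 steps for Ereg, between places 5 (uninduced ESA) and 6 (uninduced ESA-Me), groups whose doses are uncertain.

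**Figure D1:**
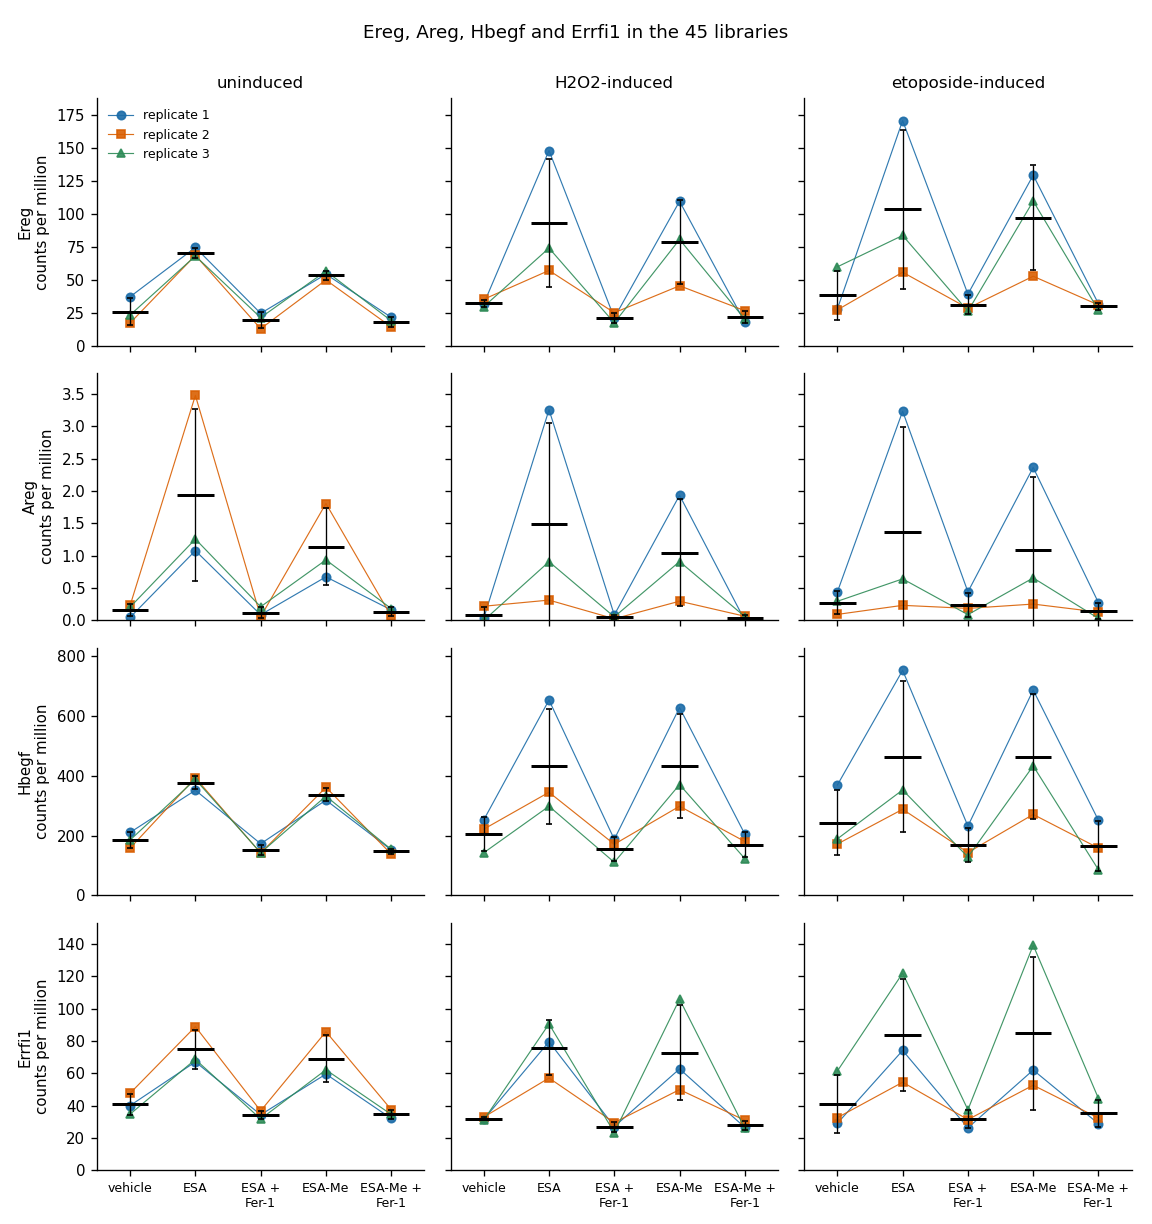
TMM-scaled CPM of Ereg, Areg, Hbegf and Errfi1 (rows) by treatment in uninduced, H2O2-induced and etoposide-induced cells (columns). Points are libraries joined by replicate number, black bars are means and whiskers SD (n = 3); in each panel the ESA and ESA-Me means lie above vehicle, and the Fer-1 means lie near or below it.

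In uninduced cells, ESA raised the ligands Ereg, Areg and Hbegf and the inhibitor Errfi1. Ereg was at 37.0, 17.1 and 23.1 CPM in vehicle replicates 1 to 3 and at 74.3, 68.4 and 67.9 CPM with ESA. Hbegf was at 210, 158 and 185 CPM in vehicle and 352, 393 and 388 CPM with ESA. No ESA library overlapped a vehicle library for either ligand, and 12.9% of all genes were higher without overlap. Errfi1 was at 40.0, 47.7 and 34.7 CPM in vehicle and 67.1, 88.9 and 68.6 CPM with ESA, again without overlap. Areg counts were 1, 7 and 6 reads in vehicle and 23, 95 and 35 reads with ESA, so its change rests on few reads and its fitted fold depends on the prior count. Areg did not pass the filter when it was applied to the 9 vehicle libraries, so it is tested here only because of the groups in which it is high, and its calls below add nothing to those of the other genes. Counts of called members below include Areg wherever it passed, so that part of each count says nothing about the set.

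The log2 fold changes of the difference were 1.51 ± 0.31 (SE) for Ereg (adjusted p = 0.000892), 1.04 ± 0.18 for Hbegf (adjusted p = 0.000161), 0.88 ± 0.18 for Errfi1 (adjusted p = 0.000855) and 3.45 ± 0.56 for Areg (adjusted p = 7.39e-05), by edgeR's quasi-likelihood test with Benjamini-Hochberg adjustment over all 16194 genes. In this comparison 7 of the 8 genes passed, 5 higher and 2 lower, against 19.8% of all genes tested (9.19% higher, 10.6% lower). The median log2 fold change of the 8 was 0.65 and that of all genes -0.02. These calls rest on the block: without it none of the 8 passed (lowest adjusted p = 0.0938, 23 genes called in all) although the directions were the same. Summed macrophage markers moved the same way, at 124, 49.3 and 87.0 CPM in vehicle and 163, 132 and 132 CPM with ESA, with 5, 6 and 6 of 6 markers higher in replicates 1 to 3; their part in the result was not tested.

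With ESA-Me in uninduced cells, Hbegf was at 319, 362 and 332 CPM, Errfi1 at 59.5, 85.8 and 62.2 CPM and Ereg at 54.1, 49.7 and 56.5 CPM. All of these libraries lay above all vehicle libraries, as held for 8.45% of all genes. Hbegf (log2 fold change 0.88 ± 0.18, adjusted p = 0.0116), Errfi1 (0.76 ± 0.18, adjusted p = 0.0298) and Areg (2.72 ± 0.58, adjusted p = 0.0143; 19, 52 and 29 reads) rose, and Ereg had 1.11 ± 0.31 (adjusted p = 0.0607). These 3 of 8, to which Areg adds nothing as said above, compare with 1.64% of all genes called, and 1.01% called higher. In a fit of uninduced libraries alone these calls were stronger, with adjusted p of 7.22e-05 for Hbegf and Errfi1 and 0.00278 for Areg, and Ereg passed too (0.000457). DESeq2 also called Ereg (0.0404) and gave no adjusted p for Areg. Without the block the lowest adjusted p of the 8 was 1. In the 45-library fit none of the 3 held without vehicle replicate 2 (adjusted p 0.198 to 0.229), ESA-Me replicate 2 (0.132 to 0.203), vehicle replicate 3 (0.0715 to 0.156) or ESA-Me replicate 3 (0.0646 to 0.120), while Errfi1 also missed the threshold without vehicle replicate 1 (0.0580) or ESA-Me replicate 1 (0.0710). Summed macrophage markers were 141, 63.8 and 106 CPM against 124, 49.3 and 87.0 CPM in vehicle, with 4, 4 and 6 of 6 markers higher, and their part was not tested.

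In H2O2-induced senescent cells the same 4 genes rose with ESA. Ereg was at 31.6, 35.1 and 29.4 CPM in vehicle and 148, 56.9 and 73.9 CPM with ESA. Errfi1 went from 31.5, 32.9 and 31.1 CPM to 79.6, 57.1 and 90.6 CPM. For both genes every ESA library lay above every vehicle library, as held for 3.37% of all genes, with vehicle levels close together and ESA levels spread. Hbegf was at 252, 221 and 142 CPM in vehicle and 654, 345 and 298 CPM with ESA. Areg had 1, 6 and 0 reads in vehicle and 83, 7 and 17 reads with ESA, so replicate 1 holds most of its reads.

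The log2 fold changes with ESA in H2O2-induced cells were 1.23 ± 0.18 for Errfi1 (adjusted p = 0.000392), 1.03 ± 0.18 for Hbegf (adjusted p = 0.00247), 1.47 ± 0.31 for Ereg (adjusted p = 0.0120) and 3.75 ± 0.69 for Areg (adjusted p = 0.00347). The 4 called, all higher, stand against 1.48% of all genes called and 1.20% called higher. Errfi1 kept its call without any single library. Without ESA replicate 1 the adjusted p was 0.106 for Hbegf, 0.521 for Ereg and 0.457 for Areg, and without vehicle replicate 1 it was 0.0815, 0.218 and 0.378 (with Areg at 2.25 in place of 3.75); Ereg also missed the threshold without vehicle replicate 3 (0.0777). Without the block none passed (lowest adjusted p = 0.781). Summed macrophage markers were 142, 38.6 and 219 CPM with ESA and 75.2, 34.9 and 215 CPM in vehicle, so they were clearly higher in replicate 1 alone; their part in the result was not tested.

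With ESA-Me in H2O2-induced cells, Ereg was at 109, 45.3 and 80.4 CPM, Errfi1 at 62.8, 49.9 and 106 CPM and Hbegf at 628, 298 and 371 CPM, and Areg had 41, 8 and 15 reads. These libraries too lay above all vehicle libraries, as held for 3.5% of all genes. Hbegf (1.06 ± 0.18, adjusted p = 0.00326), Errfi1 (1.15 ± 0.19, adjusted p = 0.00155), Ereg (1.24 ± 0.31, adjusted p = 0.0474) and Areg (3.30 ± 0.73, adjusted p = 0.0207) rose, 4 of 8 against 0.908% of all genes (0.766% higher). When the fit held only H2O2-induced libraries, Ereg (0.0732) and Areg (0.0615) missed the threshold. All 4 missed it without vehicle replicate 3 (0.0571 to 0.233) or ESA-Me replicate 3 (0.0794 to 0.298). Errfi1 alone held without vehicle replicate 1 (the others 0.110 to 0.603, with Areg at 1.82 in place of 3.30) or ESA-Me replicate 1 (0.0844 to 0.459), Ereg missed it without vehicle replicate 2 (0.0679), and without the block the lowest adjusted p was 1. Macrophage markers summed to 110, 35.5 and 224 CPM, with 5, 3 and 3 of 6 higher than in vehicle, and their part was not tested.

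In etoposide-induced cells with ESA, Hbegf, Errfi1 and Ereg rose. Hbegf was at 369, 172 and 189 CPM in vehicle and 753, 288 and 353 CPM with ESA. Errfi1 was at 29.0, 32.5 and 61.4 CPM in vehicle and 74.2, 54.5 and 122 CPM with ESA, and Ereg at 27.8, 27.0 and 59.7 CPM in vehicle and 170, 55.6 and 83.4 CPM with ESA. Vehicle replicate 3 stood above the other vehicle libraries for Errfi1 and Ereg, and replicates of the groups overlapped for all 3 genes, although each rose within each preparation. Areg had 7, 3 and 8 reads in vehicle and 45, 8 and 14 reads with ESA, which overlap.

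The log2 fold changes with ESA in etoposide-induced cells were 0.90 ± 0.18 for Hbegf (adjusted p = 0.0139), 1.03 ± 0.18 for Errfi1 (adjusted p = 0.00403) and 1.33 ± 0.31 for Ereg (adjusted p = 0.0370), while Areg had 1.93 ± 0.59 (adjusted p = 0.151). Called genes made up 0.611% of all tested, and 0.550% were called higher. Without ESA replicate 1 the adjusted p was 0.216, 0.0941 and 0.575 for Hbegf, Errfi1 and Ereg, and without vehicle replicate 1 it was 0.122, 0.0989 and 0.371; Ereg also missed the threshold without vehicle replicate 2 (0.0950). Areg passed without vehicle replicate 3 (2.43, adjusted p = 0.0329). None of the 8 passed without the block (lowest adjusted p = 0.812), nor in a fit of etoposide-induced libraries alone, where Errfi1 had 0.101, Hbegf 0.205 and Ereg 0.341. Macrophage markers summed to 116, 36.7 and 231 CPM with ESA and 70.3, 37.1 and 216 CPM in vehicle, and their part was not tested.

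With ESA-Me in etoposide-induced cells, Hbegf was at 687, 271 and 433 CPM, Errfi1 at 62.1, 52.6 and 139 CPM and Ereg at 129, 52.5 and 109 CPM, and Areg had 34, 5 and 12 reads. Hbegf (0.94 ± 0.18, adjusted p = 0.0101) and Errfi1 (1.00 ± 0.18, adjusted p = 0.00739) rose, 2 of 8 against 0.284% of all genes (0.272% higher). Ereg had 1.27 ± 0.31 (adjusted p = 0.0700, though DESeq2 called it at 0.0212) and Areg 1.74 ± 0.62 (adjusted p = 0.234). Without vehicle replicate 3, the library in which Ereg and Errfi1 were high, Ereg (1.76, adjusted p = 0.00192) and Areg (2.24, adjusted p = 0.0294) also passed, and Ereg passed without ESA-Me replicate 2 (1.47, adjusted p = 0.0396). Hbegf and Errfi1 missed the threshold without vehicle replicate 1 (0.121 each), ESA-Me replicate 1 (0.0714 and 0.060) or ESA-Me replicate 3 (0.184 and 0.154), and Hbegf without vehicle replicate 2 (0.0731). They also missed it in a fit of etoposide-induced libraries alone (0.247 and 0.166) and without the block (lowest adjusted p of the 8 0.9999). Macrophage markers summed to 79.3, 31.8 and 220 CPM, with 3, 1 and 2 of 6 higher than in vehicle.

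Cells given a compound with Fer-1 are next set against cells given the compound alone. Since no group received Fer-1 alone, an effect of Fer-1 itself cannot be told apart in these differences. Adding Fer-1 to ESA in uninduced cells left Ereg at 24.4, 12.8 and 21.2 CPM, Hbegf at 173, 142 and 142 CPM and Errfi1 at 34.4, 36.8 and 31.7 CPM. Areg had 2, 1 and 4 reads. Every one of these libraries was below every ESA library, as held for 11.9% of all genes. All 4 fell against ESA, with log2 fold changes of -1.89 ± 0.33 for Ereg (adjusted p = 0.000117), -1.32 ± 0.18 for Hbegf (1.13e-05), -1.12 ± 0.19 for Errfi1 (8.03e-05) and -3.85 ± 0.65 for Areg (8.92e-05). Lrig1 also fell and Egfr and Nrg1 rose, 7 of 8 called against 20.1% of all genes (9.65% lower, 10.4% higher). Without the block Ereg alone passed (adjusted p = 0.0360). Summed macrophage markers were lower as well, at 122, 48.5 and 102 CPM against 163, 132 and 132 CPM with ESA alone, with 2, 0 and 0 of 6 markers higher, and their part was not tested.

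Adding Fer-1 to ESA-Me in uninduced cells left Ereg at 21.4, 14.2 and 18.8 CPM, Hbegf at 152, 138 and 154 CPM and Errfi1 at 32.1, 37.5 and 34.6 CPM, with 5, 4 and 7 reads of Areg. All lay below the ESA-Me libraries, as held for 8.41% of all genes. The 4 fell, with -1.59 ± 0.31 for Ereg (adjusted p = 0.00464), -1.19 ± 0.18 for Hbegf (0.000438), -0.98 ± 0.18 for Errfi1 (0.00236) and -3.14 ± 0.57 for Areg (0.00198). The 4 called of 8 stand against 3.68% of all genes called and 1.94% called lower. Ereg missed the threshold without replicate 2 of ESA-Me (0.0541) or of ESA-Me with Fer-1 (0.0535), and Areg without the latter (0.107). Without the block the lowest adjusted p was 0.854. Summed macrophage markers were 112, 43.2 and 82.7 CPM against 141, 63.8 and 106 CPM with ESA-Me alone, with 0 of 6 markers higher in each replicate, and their part was not tested.

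In H2O2-induced cells, ESA with Fer-1 left Ereg at 21.1, 24.9 and 17.2 CPM, Hbegf at 187, 171 and 111 CPM and Errfi1 at 27.0, 29.5 and 23.4 CPM, with 2, 1 and 1 reads of Areg. ESA-Me with Fer-1 left Ereg at 17.6, 26.4 and 20.0 CPM, Hbegf at 205, 180 and 123 CPM and Errfi1 at 26.5, 30.9 and 25.9 CPM, with 0, 1 and 1 reads of Areg. No library with Fer-1 overlapped a library with the compound alone, and 5.37% (ESA) and 3.98% (ESA-Me) of all genes were lower in this way. The 4 genes fell against ESA, with -2.06 ± 0.32 (Ereg, adjusted p = 0.000212), -1.42 ± 0.18 (Hbegf, 1.77e-05), -1.48 ± 0.19 (Errfi1, 1.32e-05) and -4.50 ± 0.75 (Areg, 0.000472), 4 of 8 against 4.18% of all genes called (3.04% lower). They fell against ESA-Me as well, with -1.83 ± 0.33 (Ereg, adjusted p = 0.00196), -1.34 ± 0.18 (Hbegf, 0.000110), -1.35 ± 0.19 (Errfi1, 0.000117) and -4.66 ± 0.93 (Areg, 0.00520), 4 of 8 against 2.12% (1.68% lower). Hbegf and Errfi1 kept these calls without any single library. Areg missed the threshold without replicate 1 of ESA (0.0709), of ESA with Fer-1 (0.0562), of ESA-Me (0.0594) or of ESA-Me with Fer-1 (0.368), and Ereg without the last (0.0779). Without the block, Ereg passed against ESA (0.0348) and nothing against ESA-Me (lowest 0.239). Summed macrophage markers in replicate 1, which holds most Areg reads, were 76.7 CPM against 142 CPM with ESA alone (0 of 6 markers higher) and 75.9 against 110 CPM with ESA-Me alone (1 of 6 higher). In replicates 2 and 3 they were 36.5 and 220 CPM against 38.6 and 219 CPM (ESA), and 33.9 and 202 CPM against 35.5 and 224 CPM (ESA-Me). Their part was not tested.

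In etoposide-induced cells, ESA with Fer-1 left Ereg at 39.0, 28.3 and 26.1 CPM, Hbegf at 232, 143 and 128 CPM and Errfi1 at 26.2, 31.4 and 37.4 CPM. ESA-Me with Fer-1 left Ereg at 31.6, 30.8 and 26.8 CPM, Hbegf at 251, 158 and 85.5 CPM and Errfi1 at 28.8, 32.3 and 44.4 CPM. For these genes no Fer-1 library overlapped the compound alone, whereas Areg, with 6, 3 and 2 reads (ESA) and 9, 3 and 1 reads (ESA-Me), did overlap; 2.22% (ESA) and 2.12% (ESA-Me) of all genes were lower without overlap. Ereg (-1.64 ± 0.32, adjusted p = 0.00344), Hbegf (-1.39 ± 0.18, 5.88e-05) and Errfi1 (-1.33 ± 0.19, 0.000122) fell against ESA, and Areg had -2.30 ± 0.66 (0.0585), 3 of 8 called against 2.37% of all genes (1.91% lower). Ereg (-1.61 ± 0.32, adjusted p = 0.00269), Hbegf (-1.50 ± 0.19, 1.35e-05), Errfi1 (-1.17 ± 0.18, 0.000218) and Areg (-2.89 ± 0.67, 0.00998) fell against ESA-Me, 4 of 8 against 4.45% (2.65% lower). Hbegf and Errfi1 again kept their calls without any single library. Ereg missed the threshold without replicate 1 of ESA (0.111) or of ESA with Fer-1 (0.0553), without replicate 3 of ESA-Me with Fer-1 (0.0646), and in a fit of etoposide-induced libraries alone (0.0852 and 0.0677). Areg passed against ESA without ESA replicate 2 (0.0379), and missed it against ESA-Me without replicate 1 of ESA-Me (0.101) or of ESA-Me with Fer-1 (0.136) and without replicate 3 of either (0.0653 and 0.0981). Without the block none passed (lowest adjusted p 0.188 against ESA and 0.346 against ESA-Me). Summed macrophage markers were 67.1, 34.8 and 217 CPM against 116, 36.7 and 231 CPM (ESA), and 68.8, 30.9 and 120 CPM against 79.3, 31.8 and 220 CPM (ESA-Me); their part was not tested.

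Set against vehicle rather than against the compound, cells given a compound with Fer-1 showed no called member in any of the 6 comparisons by edgeR, nor by DESeq2. Of the 8 genes, 0 or 1 had an unadjusted p under 0.05 in each, against 2.41% to 10.7% of all genes, and 0% of all genes were called in 5 of the comparisons and 0.0185% (3 genes) in the sixth, ESA-Me with Fer-1 in etoposide-induced cells. Hbegf and Errfi1 were nonetheless below vehicle in 9 of 9 preparations with either compound plus Fer-1, and Ereg in 7 of 9. Their log2 fold changes were small, -0.27 to -0.56 for Hbegf, -0.17 to -0.31 for Errfi1 and -0.31 to -0.60 for Ereg. The furthest for Hbegf was -0.56 ± 0.18 (95% interval -0.93 to -0.19, adjusted p = 0.368) with ESA-Me and Fer-1 in etoposide-induced cells, and it passed without replicate 2 of that group (-0.85, adjusted p = 0.0358). Replicate 3 of that group, with the lowest Hbegf level, also had macrophage markers at 120 CPM against 216 CPM in its vehicle, and their part was not tested. A group with Fer-1 alone was not part of the design, so a change caused by Fer-1 itself cannot be told apart from one it has on the compound's effect.

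**Figure D2:**
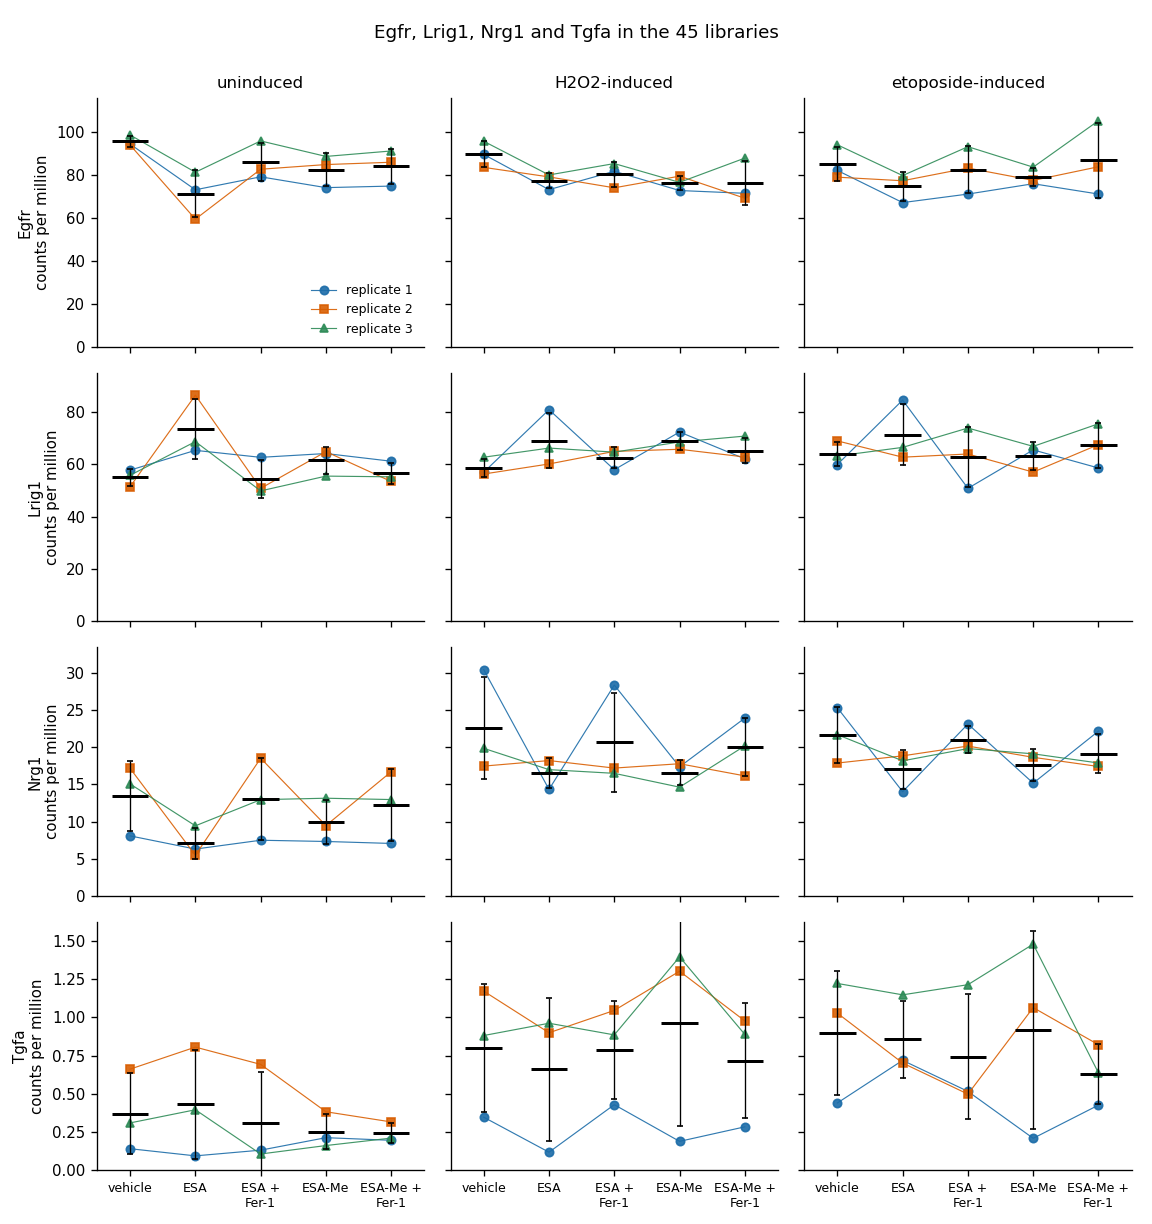
TMM-scaled CPM of Egfr, Lrig1, Nrg1 and Tgfa (rows) by treatment in the 3 cell states (columns), with libraries joined by replicate number, means as bars and SD as whiskers (n = 3). The clearest departures are uninduced ESA libraries, with Egfr and Nrg1 low and Lrig1 high, most in replicate 2.

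The receptor itself moved little. Egfr was at 94.3, 93.8 and 98.5 CPM in uninduced vehicle cells and at 73.0, 59.3 and 81.2 CPM with ESA, which do not overlap (14.6% of all genes were lower without overlap). It fell by 0.43 ± 0.08 on the log2 scale (adjusted p = 0.000507), and the fall held without any single library of that comparison. Fer-1 added to ESA brought it to 79.0, 82.6 and 95.7 CPM, a rise of 0.27 ± 0.08 (adjusted p = 0.0225) that was lost without ESA replicate 2 (0.316), ESA with Fer-1 replicate 2 (0.0678) or replicate 3 (0.0962). With ESA-Me in uninduced cells and with either compound in senescent cells the log2 fold change was -0.10 to -0.23 with adjusted p from 0.2 to 0.615, but Egfr was lower than vehicle in 9 of 9 preparations with each compound.

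Lrig1, the membrane inhibitor, rose with ESA in uninduced cells, from 57.8, 51.5 and 55.8 CPM to 65.4, 86.5 and 68.7 CPM (0.42 ± 0.12, adjusted p = 0.0156), and fell by 0.44 ± 0.12 with Fer-1 (adjusted p = 0.0123) to 62.7, 50.8 and 49.9 CPM. Replicate 2 carried much of this. The rise missed the threshold without vehicle replicate 2 (0.126) or ESA replicate 2 (0.234), and the fall without ESA replicate 2 (0.182), ESA with Fer-1 replicate 2 (0.0945) or replicate 3 (0.0586). In the other states and with ESA-Me its log2 fold changes of -0.03 to 0.24 did not pass.

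Nrg1, a ligand of ErbB3 and ErbB4, went the other way in uninduced cells. It was at 8.06, 17.2 and 15.1 CPM in vehicle and at 6.29, 5.46 and 9.42 CPM with ESA, groups that overlap, and fell by 0.89 ± 0.22 (adjusted p = 0.00478). With Fer-1 it was at 7.48, 18.5 and 12.9 CPM, 0.82 ± 0.23 above ESA (adjusted p = 0.00975). Without ESA replicate 2 the adjusted p was 0.135 for the fall and 0.202 for the rise, and without replicate 2 of ESA with Fer-1 it was 0.120 for the rise. In senescent cells and with ESA-Me its log2 fold changes against vehicle lay between -0.28 and -0.41 and did not pass. Tgfa passed in no comparison. Its counts were 2 to 40 reads per library, and its intervals were wide, from -0.63 to 1.06 on the log2 scale for ESA in uninduced cells.

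The inducers were compared in vehicle cells. With 7 members, 0 called is near the share of all genes and does not show that they were unchanged. Other genes of the system were called after the inducers, as given further below. None of the 7 members that passed the filter in vehicle cells was called between H2O2-induced or etoposide-induced and uninduced cells by edgeR, where 13% and 12.9% of 15357 genes were called, and none between the inducers, where 0% were called; DESeq2 called none of them either. At an unadjusted p under 0.05 there were 1, 2 and 0 of the 7, against 28.9%, 29.2% and 0.508% of all genes. Vehicle libraries of the 2 senescent states with the same number deviated together, and with a block for it 0 members and 0 genes were called between the inducers. Nrg1 came nearest, at 30.5, 17.5 and 19.9 CPM after H2O2 against 8.06, 17.2 and 15.1 CPM uninduced (0.74 ± 0.30, adjusted p = 0.143), and all H2O2 libraries exceeded all uninduced ones, as for 21.7% of all genes. After etoposide it stood at 21.6 ± 3.73 CPM (17.9 to 25.3), also above all uninduced libraries. The share of all genes for the latter is not given. Ereg had 0.31 ± 0.35 after H2O2 (95% interval -0.48 to 1.10) and 0.56 ± 0.35 after etoposide (-0.23 to 1.36), so the data neither show a rise nor limit one tightly. Hbegf had 0.14 ± 0.31 and 0.40 ± 0.31, Errfi1 -0.37 ± 0.25 and 0.00 ± 0.25, Egfr -0.10 ± 0.09 and -0.17 ± 0.09, Lrig1 0.08 ± 0.10 and 0.22 ± 0.10 and Tgfa 1.05 ± 0.64 and 1.26 ± 0.63 after H2O2 and etoposide. Areg was not tested here, with 14, 7 and 18 vehicle reads in uninduced, H2O2-induced and etoposide-induced cells.

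Whether the response to a compound differed with the state was tested directly. No member passed in any of the 4 tests of the difference between senescent and uninduced cells by edgeR or DESeq2, where 0.259% (ESA, H2O2), 0.741% (ESA, etoposide), 0% and 0% (ESA-Me) of all genes did, and 0, 1, 0 and 0 members had an unadjusted p under 0.05, against 7.87%, 11.8%, 2.75% and 4.89% of all genes. For ESA the difference, H2O2-induced minus uninduced, was -0.04 ± 0.44 for Ereg (95% interval -0.94 to 0.85), -0.01 ± 0.26 for Hbegf (-0.53 to 0.51) and 0.36 ± 0.26 for Errfi1 (-0.17 to 0.88). Etoposide-induced minus uninduced, it was -0.18 ± 0.44 for Ereg (-1.08 to 0.71), -0.14 ± 0.26 for Hbegf (-0.66 to 0.38) and 0.15 ± 0.26 for Errfi1 (-0.37 to 0.67). Egfr had the one unadjusted p under 0.05, with 0.25 ± 0.12 (adjusted p = 0.423). For ESA-Me the H2O2-induced minus uninduced difference was 0.13 ± 0.44 for Ereg, 0.19 ± 0.26 for Hbegf and 0.40 ± 0.26 for Errfi1, and the etoposide-induced minus uninduced one 0.15 ± 0.44, 0.06 ± 0.26 and 0.25 ± 0.26. Differences between states up to the bounds of these intervals are not excluded by the tests.

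**Figure D3:**
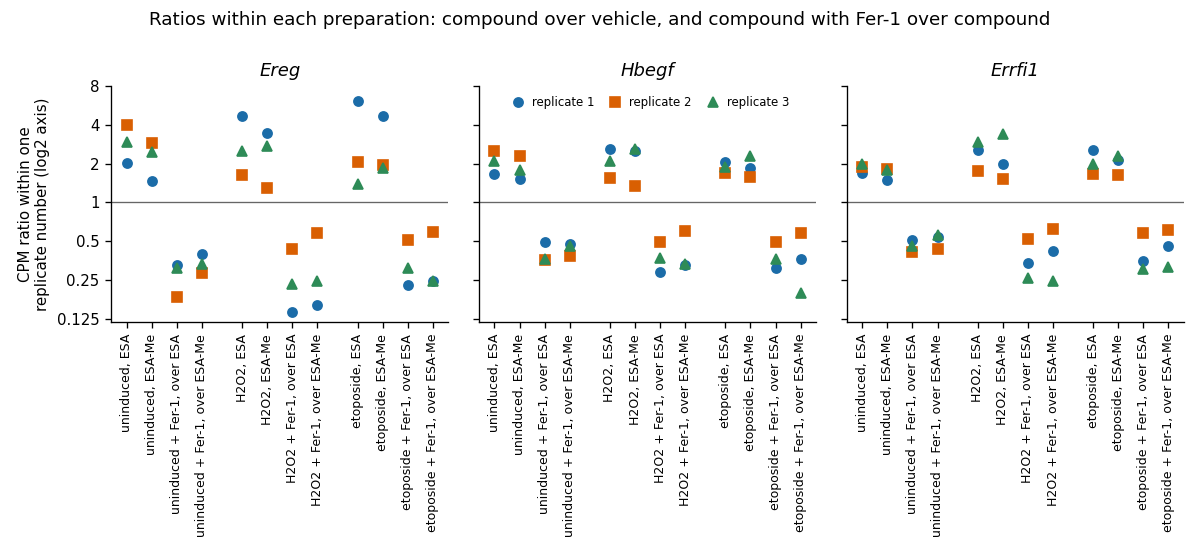
Ratio of CPM within one replicate number (y axis, log2 scale) for Ereg, Hbegf and Errfi1: compound over vehicle, and compound with Fer-1 over compound, in each state; symbols mark the replicate number. Compound ratios all lie above 1 and Fer-1 ratios all below 1, with replicate 1 of the senescent states highest for Ereg under ESA.

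The size of the response varied with the preparation. The ratio of Ereg CPM with ESA to vehicle was 2.01, 4.0 and 2.94 in replicates 1 to 3 of uninduced cells, 4.67, 1.62 and 2.51 of H2O2-induced cells and 6.14, 2.06 and 1.40 of etoposide-induced cells. Replicate 1 responded least in uninduced cells and most in senescent ones, and the labels do not say whether a number marks the same cells in different states. For Errfi1 the same ratios were narrower, 1.68, 1.87 and 1.98, then 2.53, 1.74 and 2.92, then 2.55, 1.67 and 1.99. The median absolute log2 difference between ESA and vehicle over 16194 genes was 0.203, 0.322 and 0.210 in uninduced cells, 0.244, 0.115 and 0.144 in H2O2-induced cells and 0.353, 0.18 and 0.310 in etoposide-induced cells. The order of the Ereg or Errfi1 ratios did not follow these medians throughout, since replicate 3 of etoposide-induced cells had the smallest Ereg ratio and a median above that of replicate 2. The preparation with the largest Ereg ratio in each state was the one with the largest median, and also the one in which macrophage markers rose most, to 132 from 49.3, to 142 from 75.2 and to 116 from 70.3 CPM. What part any of these had in each other was not tested.

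The 4 genes that rose kept close company over the libraries. After the mean of each preparation was subtracted from log2 CPM, Pearson's r over the 45 libraries was 0.96 for Ereg with Hbegf, 0.95 for Ereg with Errfi1, 0.91 for Ereg with Areg and 0.96 for Hbegf with Errfi1. All points share 9 preparations, and all 4 genes respond to the same treatments, so r is given as a description. Nrg1 ran opposite to Lrig1 (r = -0.86), and Tgfa followed none of the others, with r between -0.25 and 0.07.

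Among 11240 genes, those most like Hbegf were Dusp5 (r = 0.99) and Dusp6 (r = 0.99), phosphatases that switch off ERK, and Epha2 (r = 0.97), an ephrin receptor. Errfi1 was most like Dusp6 (r = 0.97), Hbegf (r = 0.96) and Dusp5 (r = 0.96). For Ereg they were Cd44 (r = 0.98), a hyaluronan receptor, Hmga2 (r = 0.98), a chromatin protein, and Ptgs2 (r = 0.98), the inducible cyclooxygenase that is widely used as a transcript marker of ferroptosis. Areg was most like Hmga2, Smim3 and Tgif1 (r = 0.93 each). Those of the genes that fell were less close: Plxdc2, Bmp4 and Arid5b for Nrg1 (r = 0.92, 0.92 and 0.91) and Rev3l, Col11a1 and Arid2 for Egfr (r = 0.81, 0.81 and 0.79). Lrig1 had Oser1, Emp2 and Procr (r = 0.87, 0.84 and 0.84), and the closest gene to Tgfa, Bid, reached only 0.59.

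**Figure D4:**
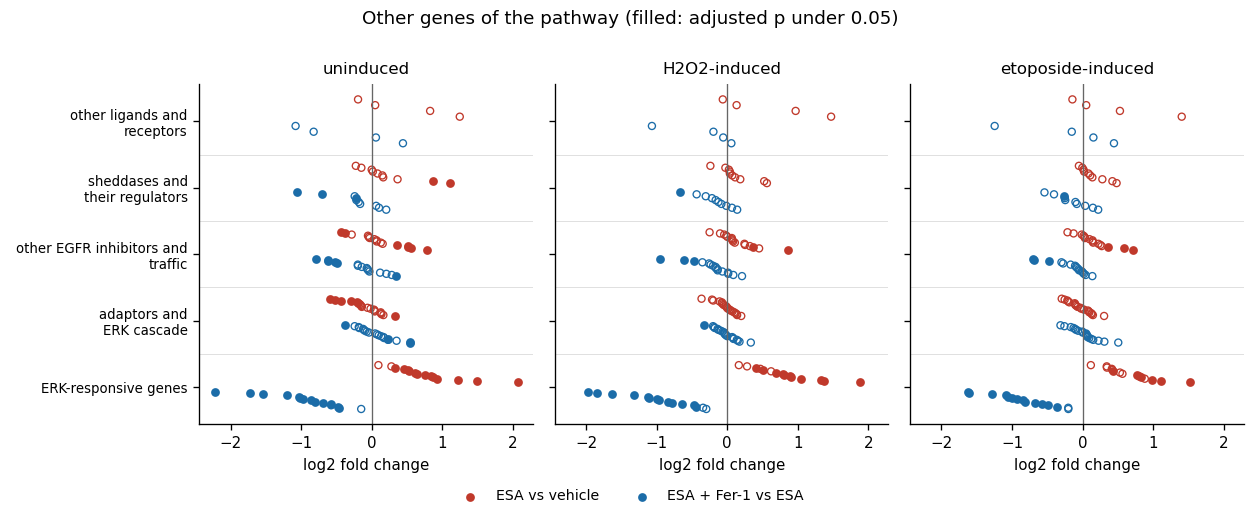
Log2 fold changes (x axis) of other genes of the pathway by list (y axis) for ESA against vehicle (red) and ESA with Fer-1 against ESA (blue) in the 3 states; each point is a gene and filled points passed an adjusted p under 0.05. ERK-responsive genes lie right of 0 with ESA and left of 0 with Fer-1, while the adaptors and kinases lie on both sides.

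Transcripts that ERK activity is known to induce rose and fell with the 4 genes. Of 15 listed and tested, 13 rose and 0 fell with ESA in uninduced cells, with a median log2 fold change of 0.64 against -0.02 for all genes, of which 9.19% were called higher. Fosl1, an AP-1 subunit, rose by 2.07 ± 0.25 (80.5 ± 27.9 against 18.8 ± 2.17 CPM, adjusted p = 1.9e-06), Dusp4 by 1.50 ± 0.18 (adjusted p = 2.06e-06) and Dusp5 by 1.23 ± 0.23 (adjusted p = 0.000317). The 2 that did not pass were Egr1 (0.28) and Spred1 (0.10). With ESA-Me 7 rose in uninduced cells (1.01% of all genes did), led by Fosl1 (1.49), Dusp4 (1.04) and Dusp5 (0.95). In H2O2-induced cells 11 rose with ESA and 9 with ESA-Me (1.2% and 0.766% of all genes did), led by Fosl1 (1.88 and 1.74), Dusp5 (1.38 and 1.33) and Egr1 (1.33 and 1.09). In etoposide-induced cells 7 and 4 rose (0.55% and 0.272% of all genes did), led by Fosl1 (1.52 and 1.52), Dusp5 (1.11 and 1.16) and Dusp6 (0.99 and 0.98). Calls of the lists for compounds and Fer-1, here and below, come from the fit with the block and rest on it. Without the block 23 genes were called in all with ESA in uninduced cells. With ESA-Me there, and with either compound in senescent cells, 0 were called.

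With Fer-1 added to ESA, 13 of the 15 fell in each of the 3 states, and with Fer-1 added to ESA-Me 11, 11 and 14 fell in uninduced, H2O2-induced and etoposide-induced cells. Of all genes 9.65%, 3.04% and 1.91% were called lower with Fer-1 on ESA, and 1.94%, 1.68% and 2.65% with Fer-1 on ESA-Me. Without the block 29, 3 and 0 genes were called in all with Fer-1 on ESA, and 0, 0 and 1 with Fer-1 on ESA-Me. Fosl1 fell most against ESA, with log2 fold changes of -2.23 ± 0.26 (uninduced), -1.98 ± 0.27 (H2O2) and -1.63 ± 0.27 (etoposide). None of the 15 was called for a compound with Fer-1 against vehicle or for either inducer, where the list's medians were -0.05 to -0.36 and -0.09 and 0.06. The list was chosen with earlier results of these libraries known, so its direction is not independent evidence.

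Other proteins that restrain or traffic the receptor were listed too. Of these 16, 5 rose and 2 fell with ESA in uninduced cells (median 0.07), where 9.19% of all genes were called higher and 10.6% lower, so the number that fell is near the share of all genes. The ones that rose were the ubiquitin ligase Cblb (0.78 ± 0.17, adjusted p = 0.00131), its partner Sh3kbp1 (0.55 ± 0.11), the suppressor Socs5 (0.51 ± 0.13), the endosomal sorting protein Hgs (0.51 ± 0.12) and the phosphatase Ptprj (0.35 ± 0.08). Lrig3 (-0.43 ± 0.09) and Lrrk1 (-0.38 ± 0.14) fell. In H2O2-induced cells Cblb (0.86 ± 0.17) and Ptprj (0.37 ± 0.08) rose with ESA, in etoposide-induced cells Cblb (0.71 ± 0.17), Socs5 (0.58 ± 0.13) and Ptprj (0.36 ± 0.08). With ESA-Me only Ptprj in H2O2-induced cells rose (0.34 ± 0.08). In these 3 comparisons 1.2%, 0.55% and 0.766% of all genes were called higher. With Fer-1 added to ESA, 5, 3 and 3 of the 16 fell in uninduced, H2O2-induced and etoposide-induced cells. Of all genes, 9.65%, 3.04% and 1.91% were called lower there. Only Lrig3 rose, in uninduced cells, 1 of 16 and below the 10.4% of all genes called higher. With Fer-1 added to ESA-Me 2, 3 and 4 fell, against 1.94%, 1.68% and 2.65% of all genes. Genes of this list and of the next ones are named in part outside the rule for named genes, after their values were seen.

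Of 10 proteases that release ligands and their regulators, Timp3, an inhibitor of the ligand-releasing protease ADAM17, rose with ESA in uninduced cells (1.11 ± 0.16, adjusted p = 1.53e-05), as did Adam8 (0.88 ± 0.20), while Adam10 and Adam17 did not pass. These 2 of 10 stand beside 9.19% of all genes called higher. Timp3 also rose with ESA-Me in uninduced cells (0.66 ± 0.16, adjusted p = 0.0298), where 1.01% of all genes were called higher. In senescent cells none of the 10 was called with either compound, against 0.284% to 1.48% of all genes. Fer-1 added to ESA lowered 3, 1 and 1 of them in uninduced, H2O2-induced and etoposide-induced cells, against 9.65%, 3.04% and 1.91% of all genes. Added to ESA-Me it lowered 2, 0 and 1, against 1.94%, 1.68% and 2.65%. Counts this small say little about the list. Timp3 also had the largest rise of the list after either inducer, at 1784 ± 641 CPM after H2O2 and 1663 ± 683 CPM after etoposide against 653 ± 141 CPM uninduced (1.44 ± 0.36 and 1.34 ± 0.36), with Adam15 and Rhbdf2 higher and Adam12 lower (-0.96 ± 0.16 and -0.99 ± 0.16). Of the 10, 3 rose and 1 fell after each inducer, where 13% and 12.9% of all genes were called in either direction.

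Of 20 adaptors and kinases between the receptor and ERK, 1 rose and 6 fell with ESA in uninduced cells, with a median of -0.10, against 9.19% of all genes called higher and 10.6% lower. Map2k1, which encodes the kinase MEK1, rose (0.33 ± 0.09), and the largest falls were those of Pik3r1 (-0.60 ± 0.15), a subunit of phosphoinositide 3-kinase, of the docking protein Gab1 (-0.52 ± 0.10) and of Braf (-0.44 ± 0.14). In senescent cells 0 changed with ESA, and Gab1 fell with ESA-Me in uninduced (-0.38 ± 0.10) and H2O2-induced cells (-0.40 ± 0.10). The 9 other ligands and receptors gave little signal: 4 were tested, and none was called with a compound or with Fer-1. Erbb2, the co-receptor, was the only one above 4 CPM in any library (19.6 to 43.4 CPM), and it was lower after H2O2 (-0.54 ± 0.11, adjusted p = 0.0139) and etoposide (-0.59 ± 0.11, adjusted p = 0.0109), as was Erbb3 (-2.05 ± 0.56 and -2.56 ± 0.58), which had 1.06 ± 0.360 CPM in uninduced vehicle cells. Erbb4, the other receptor of Nrg1, reached at most 0.481 CPM in any library.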

How the data were processed

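Total RNA of 45 MEF cultures was sequenced from stranded libraries, per the labels' protocols. The deposited table holds raw read counts per gene made by the authors; HISAT2 2.1.0 and featureCounts on GRCm38, with FastQC and edgeR, stand in the submitters' processing notes without settings, and the annotation release is not given in the sources used here. Of 57010 identifiers, 52029 were in GENCODE M21.

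Differential expression used edgeR 4.0.16 (R 4.3.3) on the deposited counts: filterByExpr (16194 genes kept), TMM scaling and 1 quasi-likelihood fit of all 45 libraries with replicate number nested in state as a block; genes were called at a Benjamini-Hochberg adjusted p under 0.05 over all genes kept. Vehicle cells of different states were compared in a fit of 9 libraries without a block (15357 genes). Replicate numbers pair the libraries within a state: over 18 comparisons same-number libraries had correlated deviations from group means (r 0.222 to 0.791, different numbers at most 0.0283). Nothing in the labels says what the number marks. Vehicle cells of the inducers were paired by this measure too (r 0.602 to 0.744), those of either inducer and uninduced cells were not (-0.196 to 0.0273); the test without a block is reported, with the blocked count beside it where they pair. In the blocked fit, p-values measure the spread left between these samples after differences between preparations are removed. In the fit of 9 vehicle libraries they measure the spread between libraries of a group. SE accompanies log2 fold changes, SD (n = 3) accompanies CPM. The fits were tested on simulated counts with planted changes. In these counts all genes shared the same dispersion and no planted change varied between preparations. The simulation therefore does not show how the calls depend on the preparations.

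The 8 genes, lists and rules were chosen with earlier results of these data known. Members are named whether or not they passed; of the lists, the 3 highest and 3 lowest called are named; likeness is the highest Pearson r of preparation-centred log2 CPM among genes with a mean of at least 2 CPM, 3 genes for each member. No pair of libraries of a group was a copy (chi-square per gene 12.0 to 139 over 45 pairs). Alternatives were no block, DESeq2 1.42.0 size factors, no filter, the DESeq2 test, fits of only the states compared, and leaving out each library in turn.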

Additional observations from a re-analysis of the deposited data

How the results depend on the processing

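The replicate block decides the calls. Without it, the number of the 8 genes called was 0 in uninduced, H2O2-induced and etoposide-induced cells for ESA and for ESA-Me against vehicle, 1 for Fer-1 added to ESA in uninduced and in H2O2-induced cells, 0 for that in etoposide-induced cells, and 0 for Fer-1 added to ESA-Me in all states; all 49 called values kept their sign and 2 their call. In fits of only the compared state, 2 were called for ESA-Me in H2O2-induced cells and 0 for either compound in etoposide-induced cells. With no filter on low counts, 4 were called for ESA-Me in etoposide-induced cells, and 1 for ESA-Me with Fer-1 against vehicle in uninduced cells and for either compound with Fer-1 against vehicle in H2O2-induced and etoposide-induced cells (Ereg or Hbegf, lower); the cause was not tested. DESeq2's size factors and test left every count within 1.5 times, although DESeq2 gave no adjusted p for Areg in 5 comparisons where edgeR called it, and also called Ereg for ESA-Me in uninduced (0.0404) and etoposide-induced cells (0.0212).

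Leaving out each library gave, in uninduced, H2O2-induced and etoposide-induced cells in turn, 5 to 7, 1 to 4 and 0 to 4 called for ESA, 0 to 2, 0 to 4 and 0 to 4 for ESA-Me, 4 to 7, 3 to 4 and 2 to 4 for Fer-1 added to ESA, and 2 to 4 in each state for Fer-1 added to ESA-Me; against vehicle with Fer-1 it was 0, except 0 to 1 for ESA-Me with Fer-1 in etoposide-induced cells. The 4 tests of a difference between states and the 3 between vehicle groups gave 0 under every alternative. No called value changed sign; among values not called, 109 did when a library was left out and 6 otherwise. All 120 group levels moved by less than 1 SD with plain totals or DESeq2 size factors, and 13 of 24 like genes stayed in the top 3 by Spearman's rho. Depth limits Areg and Tgfa most.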
